A study of Mus musculus with 46 samples.

Results

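Disruption of Arid1a was examined in mouse synovial sarcomas driven by SS18::SSX2, in the 8 tumours whose titles carry both SSM2 and ARID1A, set against the 13 whose titles carry SSM2 alone. These 21 libraries are part of 46 in the series, and 37 of the 46 are SS18::SSX2 tumours that shared the fit. Each library is ribosomal RNA-depleted total RNA from 1 whole tumour. All 21 mice carried the hSS2 allele, which expresses the human SS18::SSX2 fusion from the Rosa26 locus once Cre has acted, and tumours were started by injecting TATCre protein into the limb of young animals. The 8 Arid1a-fl mice also carried the floxed Arid1a allele that the labels call a conditional knockout, and the 13 control mice did not. The same Cre therefore starts the tumour and recombines Arid1a, and any cell of the tumour piece that Cre did not reach keeps its Arid1a. The titles also give mouse numbers: all 8 Arid1a-fl mice and 5 of the control mice are numbered under 1000, so every comparison was repeated against those 5. The other SS18::SSX2 tumours were 8 with floxed Arid1b and 8 with floxed Pbrm1.

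Synovial sarcoma is a soft tissue cancer in which SS18, part of the BAF family of chromatin remodellers, is fused to part of an SSX protein. BAF complexes use the ATPases SMARCA4 or SMARCA2 to move nucleosomes and open enhancers and promoters. ARID1A and its paralog ARID1B are alternative large subunits of the canonical form, CBAF, whereas PBRM1 marks PBAF and BRD9 marks the non-canonical GBAF. In many other cancers ARID1A is lost by mutation and is regarded as a tumour suppressor.

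The floxed part of Arid1a is exon 8, per the study. In transcript Arid1a-202 of GENCODE M21 this exon is the 8th of 20, lies at chr4:133693758-133694070 of GRCm38 on the minus strand, and is 313 bases long, which is 1 base past a multiple of 3. Its first 150 bases, chr4:133693921-133694070, are shown because they are the start of what Cre removes.
Arid1a exon 8: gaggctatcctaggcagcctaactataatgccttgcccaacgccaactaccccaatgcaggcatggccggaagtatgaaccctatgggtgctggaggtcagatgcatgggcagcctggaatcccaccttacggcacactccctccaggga
The deposited counts are per gene over all exons, so the removal of exon 8 itself is not visible in them, and only the level of the rest of the transcript is.

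Total counts were 12.7 to 18.3 M per Arid1a-fl library and 13.5 to 19.4 M per control library, and every pair of libraries of a group differed by more than counting noise. The Y-linked gene Ddx3y was above 20 CPM in 4 of 8 Arid1a-fl and 8 of 13 control libraries, and Xist, which marks the inactive X chromosome of females, was above 10 CPM in 6 of 8 and 13 of 13, so the sex of single animals was not read from these genes. Levels are CPM, counts scaled to the library total, after TMM scaling, which removes differences in library composition by a trimmed mean of log ratios. All tests were edgeR quasi-likelihood tests over 20083 genes, and a gene was called at a Benjamini-Hochberg adjusted p under 0.05. Fold changes are on the log2 scale, Arid1a-fl minus control. In whole tumours, fewer cells of a type and less RNA per cell cannot be told apart.

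Arid1a was lower in the floxed tumours, at a nearly constant level. It stood at 228 CPM in the lowest, 247 in the median and 276 in the highest of the 8 Arid1a-fl tumours, against 238, 504 and 586 CPM in the 13 control tumours. The 8 floxed tumours were all below the control median, and 12 of the control tumours lay above every one of them. Arid1a (ENSMUSG00000007880, chr4:133679008-133756769) thus fell by 0.95 on the log2 scale (SE 0.13) at an adjusted p of 7.0e-05. Against the 5 control tumours numbered under 1000 it was -0.73 (adjusted p 0.00478), and in 30 alternative analyses it stayed between -1.03 and -0.73 and past the threshold. In fits on only the 13 libraries numbered under 1000, which called no gene, it was -0.74 (unadjusted p 0.000184, adjusted p 0.12), and -0.70 with a block of neighbouring mouse numbers (unadjusted p 0.00117, adjusted p 0.196).

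The library labelled control replicate 9, mouse number 445, had an Arid1a level of 238 CPM, within the range of the floxed tumours. It is 1 of the 5 control tumours numbered under 1000. The other 4 stood at 422 to 504 CPM. In replicate 9 the 381 protein-coding genes expressed within 20 Mb of Arid1a were also shifted together, by a median of -0.76 on the log2 scale, whereas the other control tumours lay between -0.041 and 0.049 and the Arid1a-fl tumours between -0.043 and 0.141. The low Arid1a level of that library thus came with a low level of its whole chromosomal neighbourhood, which none of the 8 floxed tumours showed. It was kept in its labelled group.

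**Figure D1:**
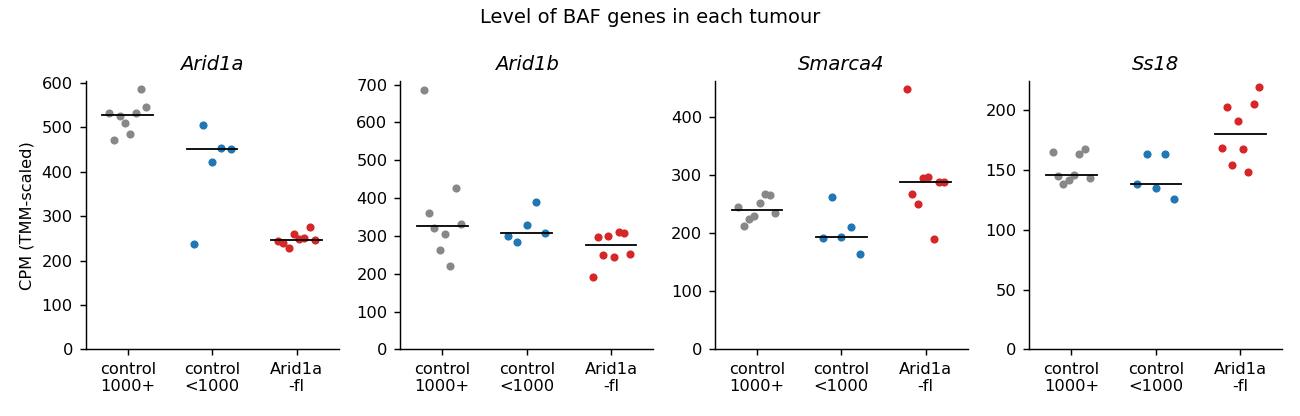
CPM of Arid1a, Arid1b, Smarca4 and Ss18 in control tumours with mouse numbers of 1000 and over, in the 5 control tumours numbered under 1000 (blue) and in the 8 Arid1a-fl tumours (red). Each point is 1 tumour and bars are medians. The Arid1a-fl tumours sit between 228 and 276 CPM of Arid1a, and 1 blue point, control replicate 9, sits among them at 238 CPM.

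The other BAF genes moved little. Of the 7 CBAF-specific subunits Arid1a alone was called, and of 16 core, ATPase and shared subunits Smarcd2 and Actl6a rose. Arid1b, the paralog that can take the place of Arid1a in the complex, stood at 192, 276 and 310 CPM (lowest, median, highest) against 222, 322 and 685 CPM in control, with a log2 fold change of -0.37 (adjusted p 0.217). The groups overlapped, although all 8 tumours lay below the control median. Smarca4, the main ATPase, stood at 190, 288 and 447 CPM against 164, 229 and 267 CPM. Its log2 fold change of 0.35 missed the threshold (adjusted p 0.0788), while against the 5 control tumours numbered under 1000 it was 0.51 (adjusted p 0.0383). Ss18, whose mouse gene remains intact beside the human fusion, had a log2 fold change of 0.29 (adjusted p 0.0705). Smarcd2 (0.43, adjusted p 0.0453) and Actl6a (0.44, adjusted p 0.0467), both shared subunits, were just past the threshold. Neither was called against the 5 control tumours (adjusted p 0.129 and 0.125). None of the 4 PBAF-specific or 3 GBAF-specific subunits was called.

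Across the transcriptome, 637 of 20083 genes were called, or 3.17%, and 4621 had an unadjusted p under 0.05. Of the 637, 284 were higher (1.41%) and 353 lower (1.76%) in Arid1a-fl tumours. A log2 fold change of at least 1 in size was reached by 301 of the 637, of which 102 were higher and 199 lower. Against the 5 control tumours numbered under 1000, 1405 genes (7%) were called, 598 higher (2.98%) and 807 lower (4.02%). Those calls come from the fit that takes its estimate of spread from all 37 libraries. With only the 13 libraries numbered under 1000 in the fit 0 genes were called (edgeR, 3913 at an unadjusted p under 0.05), and with a block of neighbouring mouse numbers 0 (edgeR, 3178 unadjusted), so the calls against these 5 control tumours hold only with the other SS18::SSX2 libraries in the fit. The 1405 also became 135 without control replicate 12, 278 without 13 and 2768 without 10, and 845, 915, 2287 and 791 without Arid1a-fl replicates 1, 2, 6 and 8. The comparisons share the Arid1a-fl and those 5 control libraries. Called in both and in the same direction were 352 genes (1.75% of those tested), which is 55.3% of the first set and 25.1% of the second. The 5 control tumours numbered under 1000 differed from the other 8 in 578 genes (2.88%).

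The number of called genes depended strongly on which tumours were included. When each tumour was left out in turn, the count ranged from 56 genes, without Arid1a-fl replicate 8, to 1416, without Arid1a-fl replicate 6. Omitting other floxed tumours gave 161 genes without replicate 1, 188 without replicate 2, 182 without replicate 5, 192 without replicate 7, 954 without replicate 3 and 436 without replicate 4. Among control tumours the count was 269 without replicate 12, 354 without replicate 7, 360 without replicate 13, 388 without replicate 9, 405 without replicate 4, 422 without replicate 5 and 1030 without replicate 10, and it stayed within 1.5 times of 637 for the other 6. Of the 284 higher genes, 113 had their highest floxed value in replicate 1 and 115 in replicate 8. Of the 353 lower genes, 94 had their lowest in replicate 1 and 141 in replicate 8.

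**Figure D2:**
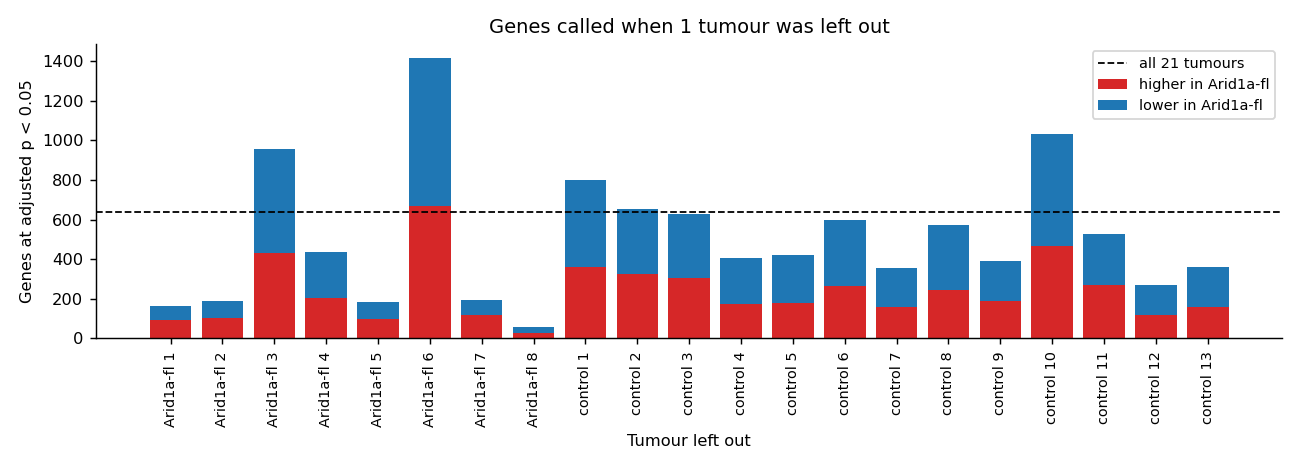
Number of genes at adjusted p under 0.05 between Arid1a-fl and control when the tumour named on the horizontal axis was left out, with genes higher in Arid1a-fl in red and lower in blue. The dashed line is the 637 genes called with all 21 tumours; the bar without Arid1a-fl replicate 8 is the lowest, at 56, and that without Arid1a-fl replicate 6 the highest, at 1416.

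Without both replicates 1 and 8, a choice made after seeing the data, 11 genes were called (2432 at an unadjusted p under 0.05), and all 11 were among the 637. The 7 higher genes were Car12, Klf14, Plekho1, Vps45, Slc44a1, Gm20075 and Gm40881, and the 4 lower were Arid1a, Pex11a, Slc27a2 and Gm42548. Arid1a and 6 of the 22 genes described next are among the 11.

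The genes described individually are 11 higher and 11 lower, out of the leading 12 in either direction by adjusted p among those called against both control sets, whose log2 fold change was 1 or more in size, and with an average of at least 1 CPM over the 21 libraries. Among the 11 higher genes were both of the carbonic anhydrases called, and the rises were very uneven between tumours. The median coefficient of variation of these 11 was 140% in Arid1a-fl tumours and 64.4% in control, and the highest tumour stood at a median of 9.52 times the median tumour. Carbonic anhydrases convert carbon dioxide to bicarbonate, and those encoded by Car12 and Car14 are anchored in the cell membrane with the enzyme outside the cell.

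Car12 (chr9:66713686-66766845) was near absent in control tumours, at 0.203, 0.600 and 1.92 CPM (lowest, median, highest), and stood at 0.728, 3.44 and 62.7 CPM in Arid1a-fl tumours. All 8 lay above the control median and 5 above every control tumour, with the highest value in replicate 8 and the next, 16.9 CPM, in replicate 2. Car12 rose by 4.03 on the log2 scale (SE 0.57) at an adjusted p of 0.000175, and by 2.59 without replicates 1 and 8 (adjusted p 0.0129). Car14 stood at 3.76, 26.2 and 67.7 CPM in control and 78.8, 144 and 1071 CPM in Arid1a-fl tumours, with no overlap between the groups. Car14 rose by 3.22 (adjusted p 0.00394), and the value was 2.60 without replicates 1 and 8 (adjusted p 0.0574). Of the 13 carbonic anhydrases tested these were the only members called, and the list's median log2 fold change was -0.417, against -0.043 over all tested genes.

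Car14 lies on chromosome 3 in a run of 5 higher genes among 17 tested, from 95897768 to 96240276, with Anp32e, Plekho1, Vps45 and Hist2h2aa2. Plekho1, a pleckstrin homology adaptor protein, stood at 13.2, 23.1 and 45.5 CPM in control and 28.1, 59.1 and 405.5 CPM in Arid1a-fl tumours (log2 fold change 2.26, adjusted p 0.00203). Vps45, which acts in fusion of endosomal vesicles, stood at 11.5, 23.9 and 27.6 CPM in control and 24.7, 35.6 and 156.6 CPM in Arid1a-fl tumours (log2 fold change 1.24, adjusted p 0.00394), with 7 of 8 above every control tumour. The same tumours were highest for all 3 genes: replicate 8 held the highest value and replicate 2 the next, at 454.9 CPM of Car14, 210.6 of Plekho1 and 65.8 of Vps45. Hist2h2aa2, a histone H2A gene in the run, followed another order, with 32.6 CPM in replicate 1, 22.5 in replicate 8 and at most 5.82 in the other 6 (log2 fold change 2.62, adjusted p 0.0151). Without replicates 1 and 8 the difference of Hist2h2aa2 was 0.74 (adjusted p 0.532). Reads of histone genes with near-identical copies can be assigned to the wrong member.

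Klf14 (chr6:30956023-30959078), an imprinted Krüppel-like transcription factor, stood at 0, 0.600 and 2.24 CPM in control and 0.993, 4.87 and 144 CPM in Arid1a-fl tumours. Klf14 rose by 5.78 (SE 0.89) at an adjusted p of 0.000847, and without replicates 1 and 8 it was 4.11 (adjusted p 0.0443). The high tumours were replicate 8 with 144 CPM, replicate 1 with 91.7 and replicate 5 with 58.3, and the other 5 had at most 6.62 CPM.

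Lrp8, the reelin receptor also called ApoER2, is an example of a call that 1 tumour decided. It stood at 14.7, 26.2 and 83.5 CPM in control and at 13.2, 48.4 and 4870 CPM in Arid1a-fl tumours. Replicate 1 had 4870 CPM and replicate 5 had 1149, while the other 6 lay within the control range or just below it. Lrp8 rose by 4.21 (SE 0.74) at an adjusted p of 0.00394, and without replicate 1 it was 2.21 and no longer called. Ano3, a member of the anoctamin family of membrane proteins, likewise was not called without replicate 1. Its values were 0, 0.198 and 1.17 CPM in control and 0.184, 1.55 and 23.9 CPM in Arid1a-fl tumours (log2 fold change 3.84, adjusted p 0.00813). The fit on only the 13 libraries numbered under 1000, with a block of neighbouring mouse numbers, gave 2.56 for Car12 (unadjusted p 0.0788). Klf14 was 4.22 (unadjusted p 0.0687) and Lrp8 1.79 (unadjusted p 0.203) in that fit. The other genes of the 22 kept an unadjusted p under 0.05 there, the highest being 0.047 for Hist2h2aa2.

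Itgb3bp and Mab21l1 were steadier. Itgb3bp, which encodes the centromere protein CENP-R, stood at 1.52, 4.38 and 5.65 CPM in control and 5.03, 8.92 and 10.9 CPM in Arid1a-fl tumours, with 7 of 8 above every control tumour (log2 fold change 1.11, adjusted p 0.0127). Mab21l1, a gene of eye and craniofacial development, stood at 4.08, 13.9 and 31.9 CPM in control and 20.5, 42.7 and 119.2 CPM in Arid1a-fl tumours (log2 fold change 2.08, adjusted p 0.00638). Hoxd1, a homeobox gene, was again uneven, and stood at 0.0584, 0.664 and 2.60 CPM in control and 0.265, 5.51 and 52.5 CPM in Arid1a-fl tumours (log2 fold change 3.75, adjusted p 0.00542). It was the only called member among 38 tested genes of Hox clusters A to D.

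The 11 lower genes were more even than the higher ones: in each of the 11, all 8 Arid1a-fl tumours lay below the control median. Their median coefficient of variation was 55.6% in Arid1a-fl tumours and 43.3% in control. Of all 353 lower genes, 270 had all 8 tumours below the control median, and of the 284 higher genes 122 had all 8 above it.

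Pex11a (chr7:79735957-79743131), which drives elongation and division of peroxisomes, was the only lower gene of the 11 whose groups did not overlap. It stood at 5.76, 8.31 and 13.1 CPM in control and at 1.32, 4.04 and 5.58 CPM in Arid1a-fl tumours. The difference of Pex11a was -1.20 (SE 0.19) at an adjusted p of 0.00124, -1.19 against the 5 control tumours numbered under 1000 and -1.06 without replicates 1 and 8 (adjusted p 0.00852). Slc27a2, an enzyme that activates very long chain fatty acids and takes part in their uptake, stood at 0.562, 2.54 and 4.89 CPM in control and 0, 0.374 and 0.858 CPM in Arid1a-fl tumours. Slc27a2 fell by 2.75 (adjusted p 0.00313) and was called in each of 30 alternatives, but not with only the 13 libraries numbered under 1000 in the fit (-3.05, adjusted p 0.12). Pex11a was the only call among 19 genes of peroxisome biogenesis, whose median log2 fold change was -0.078. Against the 5 control tumours numbered under 1000, 1 of the 19 was higher and 2 lower (15.8%, against 7% of all tested genes). Against all 13, Slc27a2 was the only call among 27 genes of peroxisomal lipid metabolism, with a median of -0.03.

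**Figure D3:**
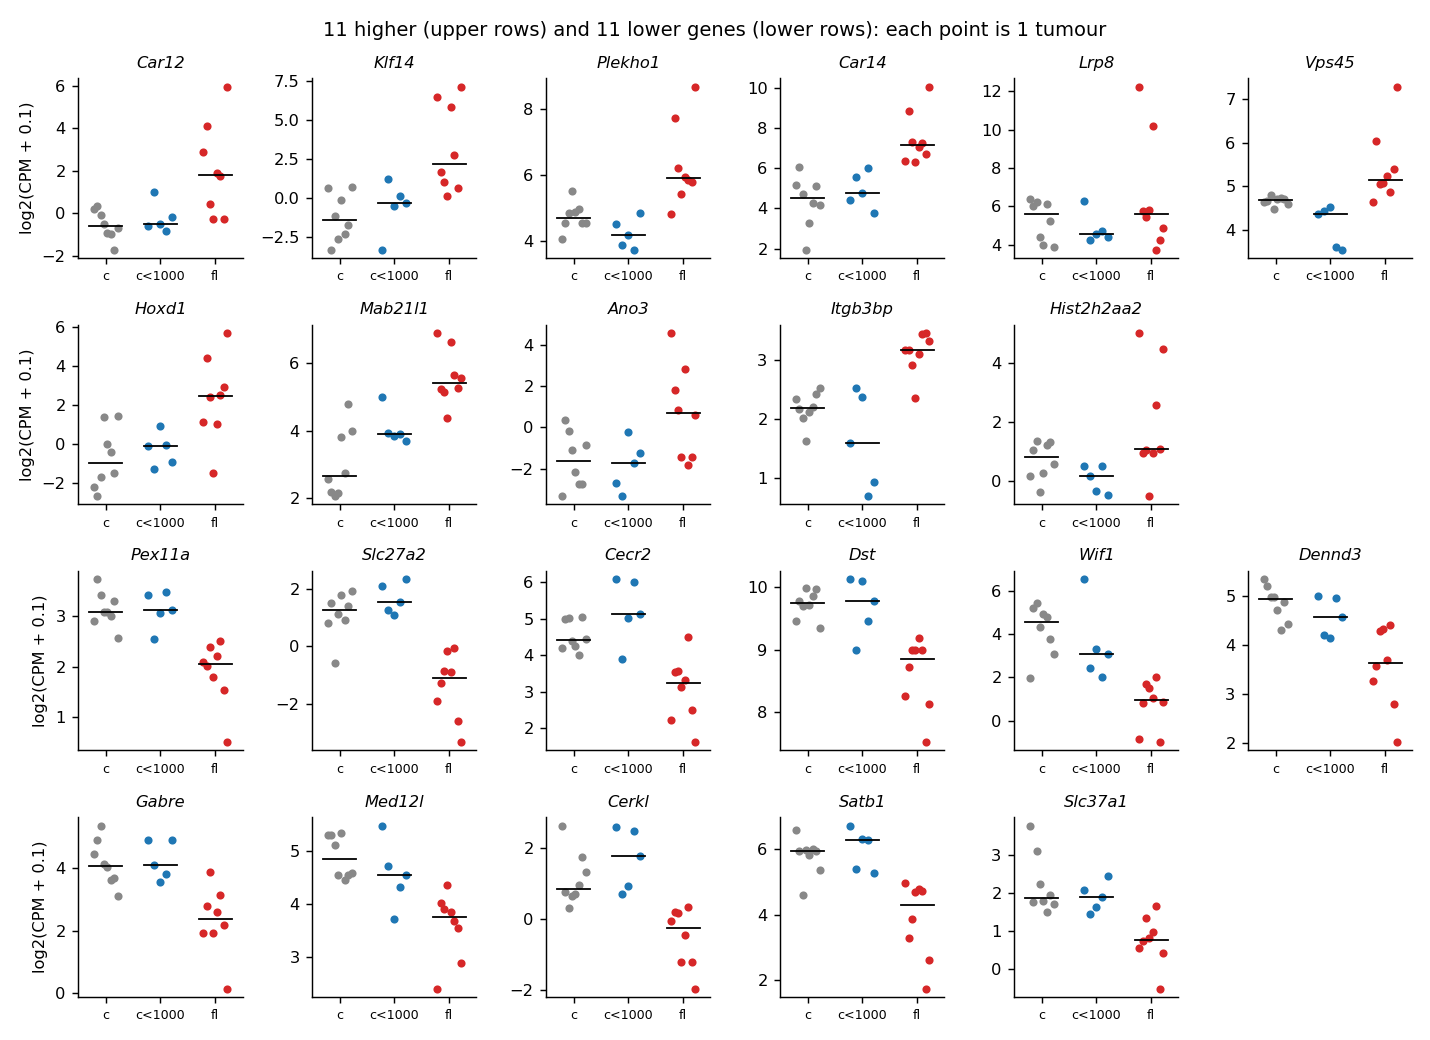
Level of the 22 genes as log2(CPM + 0.1), with control tumours numbered 1000 and over in grey (c), control tumours under 1000 in blue (c<1000) and Arid1a-fl tumours in red (fl). Each point is 1 tumour and bars are medians; the vertical axes differ between genes. In the upper rows 1 to 3 red points usually stand far above the rest, as for Lrp8 and Klf14, whereas in the lower rows the red points lie together below the control medians, as for Pex11a and Slc27a2.

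Wif1, a secreted inhibitor that binds Wnt ligands, stood at 3.77, 13.5 and 92.6 CPM in control and 0.399, 1.82 and 3.92 CPM in Arid1a-fl tumours, with 7 of 8 below every control tumour (log2 fold change -3.54, adjusted p 0.00702). Chromatin genes among the 11 were Cecr2, Satb1 and Med12l. Cecr2, a bromodomain partner of ISWI remodellers, stood at 14.7, 31.9 and 67.7 CPM in control and 2.95, 9.30 and 22.3 CPM in Arid1a-fl tumours (log2 fold change -1.70, adjusted p 0.00532). Satb1, a protein that organises chromatin loops and is prominent in T cells, stood at 23.8, 61.03 and 104.1 CPM in control and 3.26, 20.1 and 31.2 CPM in Arid1a-fl tumours (log2 fold change -1.78, adjusted p 0.0142). It heads a run of 10 lower transcripts on chromosome 17, from 51736187 to 51863217, in which all 10 tested entries were called and 8 were called against both control sets. The other 9 are unnamed clone or predicted transcripts around Satb1, whose reads can come from its unspliced RNA. Of 12 T and NK cell markers tested none was called, but 9 had a negative log2 fold change, with a median of -1.999 and 7 at an unadjusted p under 0.05. The summed level of all 20 listed markers was 12.2 to 20.3 CPM in Arid1a-fl tumours, with a median of 15.16 CPM. In control tumours this sum was 4.74 to 76.8 CPM, with a lower median of 13.17 CPM. The median sum thus did not fall with the fold changes. The part of this sum in the level of Satb1 was not tested. Med12l, a paralog of the Mediator subunit MED12, had a log2 fold change of -1.17 (adjusted p 0.0129).

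Dst, which encodes dystonin, a large linker of the cytoskeleton, stood at 511, 876 and 1121 CPM in control and 183, 466 and 586 CPM in Arid1a-fl tumours (log2 fold change -1.06, adjusted p 0.00638). The remaining members of the set were Dennd3, an activator of a Rab GTPase (-1.07), the GABA-A receptor subunit Gabre (-1.73), the ceramide kinase-like gene Cerkl (-2.03) and the sugar phosphate transporter Slc37a1 (-1.45), with adjusted p of 0.0113 to 0.0152.

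Genes of cell division leaned upward as groups, with few calls. Of 41 DNA replication genes 4 rose and none fell, which is 9.76% against 3.17% of all tested genes, and 31 had an unadjusted p under 0.05. All 41 had a positive log2 fold change, with a median of 0.698, and 0.961 against the 5 control tumours numbered under 1000. In that second comparison 5 rose (12.2%, against 7% of all tested genes), and 1 gene was called in both. Mcm4, a subunit of the replicative helicase, stood at 38.4, 58.6 and 101.0 CPM in control and 54.2, 115.8 and 218.3 CPM in Arid1a-fl tumours (log2 fold change 0.91, adjusted p 0.0272). Gins4 (0.44, adjusted p 0.0364) and Gins1 (1.03, adjusted p 0.0437) encode subunits of the GINS complex of that helicase, and Orc1 was the remaining call. Of 46 genes of mitosis and the kinetochore none was called, although all 46 were positive, with a median of 0.733. Of 65 replication-dependent histone genes 3 rose and 64 were positive (median 0.761), and of 32 DNA repair genes 1 rose, with a median of 0.505.

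The summed level of the DNA replication genes was 455, 920 and 1978 CPM in control (lowest, median, highest) and 772, 1502 and 2947 CPM in Arid1a-fl tumours. The 2 floxed tumours above every control tumour were replicates 1 and 8, and the other 6 lay within the control range. Without replicates 1 and 8 no DNA replication gene was called and the median was 0.343, and the median of the histone genes was 0.087. The calls among DNA replication genes also fell to 0 when replicate 1, 2, 7 or 8 alone was left out, and rose to 16 without replicate 6, the floxed tumour with the lowest summed level.

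Among 26 G1 cyclins, cyclin-dependent kinases and their inhibitors, 3 rose (11.5%) and none fell. Cdk2, the kinase of S phase entry, stood at 34.6, 43.8 and 62.0 CPM in control and 45.9, 71.1 and 100.8 CPM in Arid1a-fl tumours, with all 8 above the control median and 5 above every control tumour (log2 fold change 0.59, adjusted p 0.0211). Cdk4 (0.76, adjusted p 0.0355), the kinase that cyclin D activates, and Ccne1 (1.24, adjusted p 0.0484), the cyclin E1 partner of CDK2, were the others. Without replicate 8, no gene of the 26 was called.

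Promoters are shown for Cdk2, as a called cell division gene, and for Car12 and Pex11a, which had the smallest adjusted p of the 11 higher and of the 11 lower genes described. Each is 250 bases before to 50 after the start in RefSeq on GRCm38.p6, read 5′ to 3′ on the gene's strand. Capitals mark any match, on either strand, to AP-1 (TGANTCA), CRE (TGACGTCA), SP/KLF (GGGCGG), E2F (TTTCCCGC), ISRE (GAAA, any pair of bases, GAAA), TEAD (GGAATG) or CCAAT, and a match is a description, not a bound site.
Cdk2 chr10:128705002-128705301 minus strand: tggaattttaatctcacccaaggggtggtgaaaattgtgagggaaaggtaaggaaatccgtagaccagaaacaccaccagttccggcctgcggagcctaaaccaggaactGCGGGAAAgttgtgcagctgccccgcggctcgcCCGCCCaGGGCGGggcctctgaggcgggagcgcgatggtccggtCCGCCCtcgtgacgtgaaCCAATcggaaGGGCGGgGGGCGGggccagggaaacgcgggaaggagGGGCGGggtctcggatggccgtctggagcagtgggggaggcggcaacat
Car12 chr9:66713436-66713735 plus strand: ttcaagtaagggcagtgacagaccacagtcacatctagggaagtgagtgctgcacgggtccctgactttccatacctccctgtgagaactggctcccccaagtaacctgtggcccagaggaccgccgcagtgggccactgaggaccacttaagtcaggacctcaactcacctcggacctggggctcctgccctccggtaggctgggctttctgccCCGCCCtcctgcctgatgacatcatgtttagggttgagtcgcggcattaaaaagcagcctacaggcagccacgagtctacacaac
Pex11a chr7:79743082-79743381 minus strand: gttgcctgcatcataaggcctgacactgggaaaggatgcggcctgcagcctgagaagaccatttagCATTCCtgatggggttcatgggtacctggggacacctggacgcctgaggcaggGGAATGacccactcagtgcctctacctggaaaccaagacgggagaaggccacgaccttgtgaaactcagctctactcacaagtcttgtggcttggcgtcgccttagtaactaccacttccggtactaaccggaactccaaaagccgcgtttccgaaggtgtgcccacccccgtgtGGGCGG
The Cdk2 window held 8 matches and 25 CpG pairs, the Car12 window 1 match and 9 CpG pairs, and the Pex11a window 3 matches and 13 CpG pairs. Of the 12406 tested genes with a promoter in the table, 2.18% held the E2F letters and 6.4% the AP-1 letters. Among the 191 called higher the shares were 5.24% for E2F (10 genes) and 2.62% for AP-1 (5 genes). Among the 230 called lower they were 2.17% (5 genes) and 7.83% (18 genes). Shares in all tested, higher and lower genes in turn were 65.56%, 70.68% and 75.22% for SP/KLF and 3.345%, 1.571% and 4.783% for CRE. TEAD stood at 14.66%, 14.14% and 18.26%, ISRE at 3.708%, 2.618% and 4.783%, and CCAAT at 42.49%, 45.03% and 39.57%. Whether any of these shares differ beyond chance was not tested.

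Wnt pathway genes were called in both directions, with 1 higher and 4 lower of 63 tested (7.94%, median -0.204). The list's median was -0.038 against the 5 control tumours numbered under 1000, where 6.35% were called, against 7% of all tested genes. Tcf7l2, a DNA-binding factor of the pathway, rose from 52.5, 102.4 and 125.5 CPM in control to 91.2, 149.2 and 314.8 CPM (log2 fold change 0.69, adjusted p 0.0255). The lower members were the secreted inhibitors Wif1 and Sfrp2 (-1.64, adjusted p 0.0398) and the receptors Fzd9 (-1.75, adjusted p 0.0373) and Fzd1. In the retinoic acid pathway 1 gene rose and 2 fell of 21. Crabp1, which binds retinoic acid inside cells, had a log2 fold change of 3.08 (adjusted p 0.0272) that was 1.51 and no longer called without replicate 8, which held 150.4 CPM. The nuclear receptor Rxra fell (-0.40, adjusted p 0.0405).

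Transcription factor families gave few calls. Both Zic1 (-4.11, adjusted p 0.0482) and Zic4 (-4.99, adjusted p 0.0430), neighbouring zinc finger genes of neural and mesodermal development, were lower among 5 ZIC factors. Zic1 varied widely in control tumours, at 0.512, 10.9 and 187.4 CPM, and stood at 0.170, 2.28 and 5.66 CPM in Arid1a-fl tumours, of which 2 lay below every control tumour. Neither gene was called without control replicate 9, or when Arid1a-fl replicate 1, 2, 4, 5, 7 or 8 was left out. Beside Klf14, 2 of 15 Krüppel-like factors fell, Klf15 (-1.48, adjusted p 0.0364) and Klf13 (-0.85, adjusted p 0.0380). Of 33 FOX factors Foxn2 rose (0.46, adjusted p 0.0389), and Foxp1 (-0.60, adjusted p 0.0480) and Foxa1 (-2.68, adjusted p 0.0487) were among those that fell. Foxa1, an epithelial and endodermal pioneer factor, stood at 1.22, 23.9 and 70.0 CPM in control and 0.283, 2.54 and 11.2 CPM in Arid1a-fl tumours. Of 369 tested Zfp zinc finger genes 5 rose and none fell (1.36%). Against the 5 control tumours numbered under 1000, 7 were higher and 26 lower (8.94%, against 7% of all tested genes). The control tumours numbered under 1000 and the other control tumours themselves differed in 26 of the 369, and in 2.88% of all tested genes.

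Epithelial genes leaned downward, with 3 of 52 called (5.77%, median -0.735) and 4 of 52 positive. Pkp2 (-1.44, adjusted p 0.0373) and Jup (-0.42, adjusted p 0.0398) encode proteins of desmosomes, and Muc1 (-1.23, adjusted p 0.0480) is a mucin of glandular surfaces. The summed level of the list was 445, 730 and 1315 CPM in control and 230, 458 and 875 CPM in Arid1a-fl tumours, which overlapped. No gene of the list was called when Arid1a-fl replicate 1, 2, 5, 7 or 8 was left out, and 1 was with a skeletal muscle marker score as a covariate. In 24 genes of epithelial-mesenchymal transition and cadherins, the transcription factors Twist2 (2.76, adjusted p 0.0280) and Snai2 (1.42, adjusted p 0.0413) rose and Cdh13 (-1.49, adjusted p 0.0405) fell. Twist2 stood at 0.633, 2.44 and 10.9 CPM in control and 0.331, 18.9 and 88.7 CPM in Arid1a-fl tumours, of which 6 lay above every control tumour and 1 below. Of the 3, Twist2 alone was also called against the 5 control tumours numbered under 1000 (adjusted p 0.0476).

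Of 36 matrix proteases and inhibitors 3 rose, all ADAMTS metalloproteases, and none fell (median -0.064). Adamts9, a versican-cleaving enzyme, stood at 51.8, 82.5 and 298.6 CPM in control and 123.1, 278.6 and 715.8 CPM in Arid1a-fl tumours (log2 fold change 1.67, adjusted p 0.00813). Adamts18 (1.87, adjusted p 0.0477) and Adamts17 (1.48, adjusted p 0.0486) were the others. Against the 5 control tumours numbered under 1000 none of these 3 was called, with adjusted p of 0.0552 for Adamts9, 0.134 for Adamts18 and 0.166 for Adamts17.

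Neuronal and synaptic genes were called in both directions, 2 higher and 3 lower of 95 (median -0.279). The list's median was -0.111 against the 5 control tumours numbered under 1000, where 4.21% were called, against 7% of all tested genes. Beside Lrp8, the GABA-A receptor subunit Gabrg3 rose (3.90, adjusted p 0.0300), and the adhesion protein Cntn5 (-2.19, adjusted p 0.0373) and the neuropeptide gene Cartpt (-4.20, adjusted p 0.0465) fell. Among 50 imprinted genes Klf14 rose and 4 fell (10% called, median -0.036). The actin nucleator Cobl (-1.48, adjusted p 0.0178), the exchange factor Rasgrf1 (-2.34, adjusted p 0.0237) and the noncoding RNA Peg13 (-0.55, adjusted p 0.0360) fell, as did the growth factor gene Igf2.

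Interferon-stimulated genes leaned downward. Of 57 tested 4 fell and none rose (7.02%, median -0.62), and 2 of the 57 had a positive fold change. Ifih1, the cytoplasmic RNA sensor MDA5, stood at 14.8, 28.3 and 55.7 CPM in control and 6.28, 13.5 and 21.8 CPM in Arid1a-fl tumours (log2 fold change -1.05, adjusted p 0.0162). Cmpk2, an interferon-induced nucleotide kinase (-1.23, adjusted p 0.0156), the GTPase Irgm1 (-0.79, adjusted p 0.0362) and Herc6 were the others. Skeletal muscle content differed widely between tumours, and with a muscle marker score as a covariate 2 of the 57 were called and the median was -0.20. Of 28 complement genes 2 rose and 1 fell (10.7%), 8 were positive and the median was -0.486, or 0.039 with the muscle covariate. C1rb (2.64, adjusted p 0.0373) was high in 1 tumour, replicate 5, at 16.9 CPM, and without it the log2 fold change was -0.82. Masp1 (2.22, adjusted p 0.0480) was highest in replicate 8, at 441 CPM, while C1s1 fell (-1.28, adjusted p 0.0384).

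**Figure D4:**
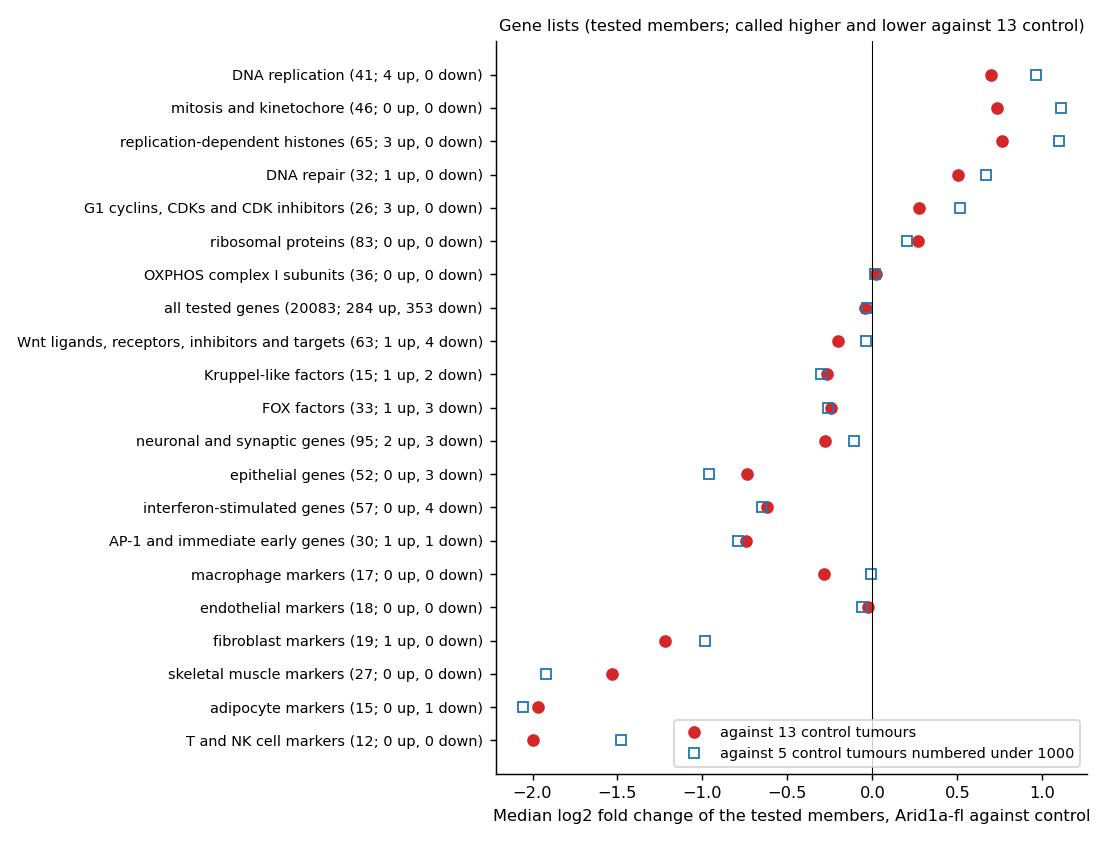
Median log2 fold change of the tested members of 20 gene lists and of all tested genes, against the 13 control tumours (red) and the 5 control tumours numbered under 1000 (blue squares). The number tested and the calls against 13 control tumours stand in brackets. DNA replication, mitosis and histone lists lie between 0.698 and 0.761 in red, and epithelial, interferon-stimulated, muscle, adipocyte and T and NK cell lists lie below -0.6.

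Of the study's own gene sets SAT and MAT were examined, and its set of silenced genes was not analysed here. The SAT genes (switched on in the tumour cells compared with the cells they arise from) had 2 higher and 3 lower of 184 tested (2.72%, median -0.197), the lower ones including Lypd6b (-1.94, adjusted p 0.0290). Their median was 0.048 against the 5 control tumours numbered under 1000, with 96 of the 184 positive. In that comparison 1 was higher and 2 lower (1.63%, against 7% of all tested genes). The MAT genes (kept on between the same cells) had 2 higher and 12 lower of 353 (3.97%, median -0.018). Against the 5 control tumours numbered under 1000 they had 14 higher and 25 lower (11%, against 7% of all tested genes). Of the 353 MAT genes 15 differed between the control tumours under 1000 and the others, as did 2.88% of all tested genes. Both sets come from an associated study of single cells, which are not among these libraries. Solute carrier genes had 2 higher and 9 lower of 242, including the choline transporter Slc44a1 (0.64, adjusted p 0.0156), which was called without replicates 1 and 8 as well. No gene was called among 83 ribosomal proteins, 36 subunits of respiratory complex I and 37 proteasome genes.

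Markers of other cell types gave 3 calls. In the fibroblast list Cd248 rose (0.90, adjusted p 0.0420), although 15 of the 19 markers were negative (median -1.218). Cd248 was called neither with the muscle covariate nor after chromosome centring. The summed level of the 19 markers had a higher median in Arid1a-fl than in control tumours, 6936 against 4008 CPM. The ranges overlapped, at 2439 to 9521 and 1809 to 15878 CPM. In the adipocyte list the triglyceride lipase Pnpla2 fell (-0.93, adjusted p 0.0277) and in the Schwann cell list Pou3f1 fell (-1.71, adjusted p 0.0477). No marker was called among 17 of macrophages, 18 of endothelium, 27 of skeletal muscle, 12 of T and NK cells and 8 of B and plasma cells. All 27 skeletal muscle (median -1.531), 15 adipocyte (median -1.97) and 8 B and plasma cell markers (median -1.729) had a negative log2 fold change. In the other direction, all 6 erythroid (median 0.986) and 7 of 8 mast cell markers (median 0.965) were positive, with 0 called. Of the 18 endothelial markers 9 were positive. Summed skeletal muscle markers ranged from 29.7 to 29472 CPM in Arid1a-fl tumours (median 3839) and from 42.97 to 127363 CPM in control tumours (median 13208). Replicates 1 and 8, which set many of the calls, lay far apart in muscle, at 38.2 and 14796 CPM. With the muscle score as a covariate 466 genes were called. The keratinocyte markers Flg and Ivl were at 0 in every library of both groups. The part of these cell types in the results above was not tested beyond the muscle covariate.

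The direction of the calls differed between chromosomes, and some control tumours had shifted levels of whole chromosomes. On chromosome 6, 7 genes were higher and 44 lower (4.98% of those tested called), and on chromosome 4 37 and 11 (4.24%). The shares called were near the 3.17% of all tested genes on the next 4 chromosomes. Chromosome 1 had 4 higher and 34 lower (2.87%), and chromosome 5 had 7 and 38 (3.29%). Chromosome 17 had 4 and 24 (3.14%), and chromosome 14 had 17 and 3 (3.04%). The median level of all protein-coding genes of a chromosome was shifted by over 0.2 on the log2 scale in 9 cases on autosomes, all in 3 control tumours and none in Arid1a-fl tumours. In control replicate 1 chromosomes 1, 5, 11, 15 and 17 were shifted by 0.246 to 0.442. In control replicate 9 chromosome 4 was shifted by -0.338, chromosome 14 by -0.655 and chromosome 6 by 0.221, and in control replicate 12 chromosome 6 by 0.272. On chromosome 6 the Arid1a-fl tumours lay at -0.164 to -0.103 and the control tumours at -0.128 to 0.272. DNA copy number was not measured in these libraries.

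**Figure D5:**
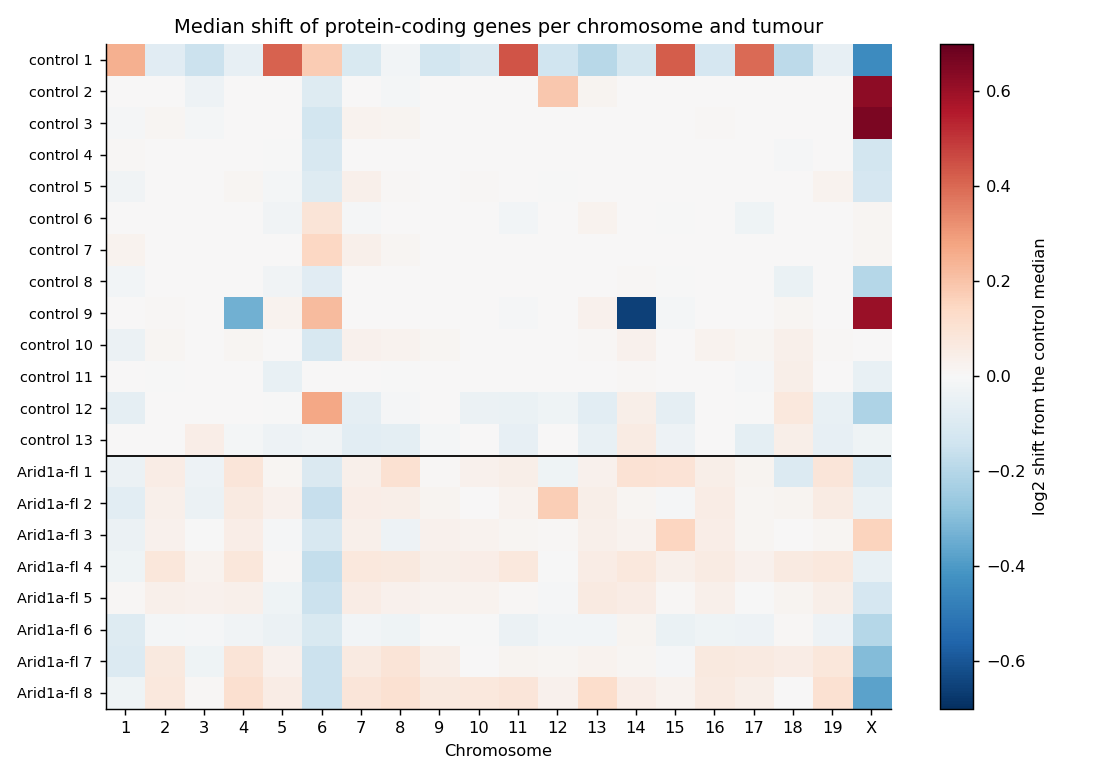
Median log2 shift of protein-coding genes from the control median, for each chromosome (horizontal) and tumour (vertical), with control tumours above the line and Arid1a-fl tumours below. Control replicates 1 and 9 show whole chromosomes shifted, such as chromosome 14 at -0.655 in replicate 9, and on the autosomes no Arid1a-fl tumour passes 0.2 in size. Chromosome X also varies between tumours of both groups and was not counted.

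When each chromosome of each library was centred on its own shift, 503 genes were called (211 higher and 292 lower), 426 of them among the 637. On chromosome 6 the calls became 18 higher and 13 lower, and on chromosome 4 19 and 17. None of the 22 genes described individually lost its call. Of all 82 called genes chosen for description 18 did, with adjusted p of 0.0501 to 0.146. They include Klf15 and Foxp1 on chromosome 6 (log2 differences of -1.31 and -0.44), Actl6a, Gins4, Gins1, Ccne1, Adamts17, Adamts18, Zic1, Foxn2, Foxa1, Masp1, C1s1 and Cd248. Without control replicates 1 and 9, 570 genes were called. Within 20 Mb of Arid1a, 20 of 564 tested genes were called (3.55%), 16 higher and 4 lower. In all, 26 runs of at least 3 neighbouring called genes of the same direction were found. The longest after that of Satb1 was a run of 9 higher transcripts around Mir99ahg on chromosome 16, none of which was called against the 5 control tumours numbered under 1000. A run of 5 higher transcripts at Fbxl7 on chromosome 15 was called against both control sets.

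Compared directly, Arid1a-fl tumours differed from Arid1b-fl tumours in 20 genes (0.0996%) and from Pbrm1-fl tumours in 2468 (12.3%). All Arid1b-fl and Pbrm1-fl mice had numbers over 1000, in ranges that did not overlap each other, so the floxed gene and the range cannot be told apart in these direct contrasts. With each floxed group first set against the control tumours of its own range, 0 genes differed from Arid1b-fl (edgeR, 2238 at an unadjusted p under 0.05) and 436 from Pbrm1-fl. The 22 genes were chosen for their change in these same Arid1a-fl libraries. Contrasts that reuse those libraries therefore lean toward a difference for them. Against the 13 control tumours, 0 of the 22 were called in Arid1b-fl and 2, Gabre and Satb1, in Pbrm1-fl tumours. Of the 22 genes, 5 differed from Arid1b-fl directly and none with own-range control, and 21 and 9 did so from Pbrm1-fl. The 9 were Car12, Plekho1, Lrp8, Vps45, Ano3, Pex11a, Slc27a2, Cecr2 and Satb1. Satb1 had a log2 fold change against the 13 control tumours of -1.78 in Arid1a-fl, -0.57 in Arid1b-fl (adjusted p 0.831) and 1.39 in Pbrm1-fl tumours (adjusted p 0.00914). Car12 had 4.03 in Arid1a-fl, -0.15 in Arid1b-fl (adjusted p 0.992) and -1.80 in Pbrm1-fl tumours (adjusted p 0.0884). These 3 contrasts share the same control tumours.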

How the data were processed

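Gene expression was measured by RNA sequencing, with 1 library per tumour. The authors deposited raw read counts per Ensembl gene in 1 table for the 37 SS18::SSX2 tumours, and the entries are whole numbers with unequal totals. Tools named in the submitters' processing notes are STAR 2.7.11 and featureCounts 1.6.3, with genome build mm10, and the study's methods used DESeq2 for its own tests. Which annotation release, strandedness and handling of multi-mapping reads featureCounts had were not given in the sources used here, so reads of paralogs, overlapping genes and antisense genes can be misassigned. Symbols came from GENCODE M21 on GRCm38 and matched 91.5% of 56980 identifiers.

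Groups came from the sample titles, and replicates were numbered in accession order, which pairs nothing. Counts were filtered with filterByExpr and fitted for all 37 libraries together with edgeR 4.0.16 in R 4.3.3 (TMM scaling, robust quasi-likelihood, two-sided, Benjamini-Hochberg). P-values measure the spread between tumours. The comparison against the 5 control tumours numbered under 1000 used the same fit with control divided by number range. Scripts were tested on simulated counts.

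Named genes were Arid1a, the 12 higher and 12 lower with the smallest adjusted p among genes called against both control sets (absolute log2 fold change of at least 1, mean of at least 1 CPM, a symbol, no predicted, clone or pseudogene entry, and neither Xist, Tsix nor a Y-linked gene), up to 3 called members in each direction of a list described, and Arid1b, Smarca4 and Ss18. A few genes that this rule chose are not reported here and were not replaced. Orc1, Herc6, Igf2, Fzd1, genes of the runs and the 11 genes called without Arid1a-fl replicates 1 and 8 were named after their values were seen. Members and gene lists were chosen with earlier results of these data known. In all, 123 lists and families were examined, and 40 passed the rule for description (at least 3 calls or 10% called, or the BAF, study and cell type classes).

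Alternatives were other size factors, no filter, DESeq2 1.42.0, a stricter threshold, fewer libraries in the fit, a skeletal muscle covariate, a block of neighbouring mouse numbers, and each tumour left out. Chromosome-centred scaling, the fits without control replicates 1 and 9 and those without Arid1a-fl replicates 1 and 8 were chosen after seeing the data. The chromosome shift is the median, over protein-coding genes of at least 5 CPM, of each library's log2 CPM minus the control median.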

Additional observations from a re-analysis of the deposited data

Results flagged for a closer look

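Of 54 groups of values examined, 4 held a tumour far from the rest, all 4 among the 5 control tumours numbered under 1000, and chance alone marks about 1 in 20 groups. On the log2 CPM scale these were Arid1a, lowest in control replicate 9 at 7.89, and Lrp8 at 6.29, Mab21l1 at 5.00 and Wif1 at 6.54, each highest in control replicate 9. Control replicate 9 is the library whose chromosomes 4 and 14 were shifted downward, and Arid1a and Lrp8 lie on chromosome 4. Whether the shift and these levels are linked was not tested.

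Of the 22 named genes, 5 differed from Arid1b-fl tumours in the direct contrast (edgeR quasi-likelihood test, Benjamini-Hochberg over all genes). The log2 differences, Arid1a-fl minus Arid1b-fl, were 4.18 for Car12, 4.79 for Lrp8, 4.45 for Ano3, 1.28 for Itgb3bp and -2.69 for Slc27a2. With each group set against control of its own number range none of the 22 differed. The 22 were chosen by their change in the same Arid1a-fl libraries, so their differences here are not independent of that choice. In Arid1b-fl tumours 0 of the 22 were called against the 13 control tumours.

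From Pbrm1-fl tumours 21 of the 22 differed directly, all but Gabre. The log2 differences, Arid1a-fl minus Pbrm1-fl, of the higher genes were 5.83 for Car12, 4.44 for Klf14, 2.66 for Plekho1, 2.75 for Car14, 4.54 for Lrp8, 0.98 for Vps45, 4.43 for Hoxd1, 2.20 for Mab21l1, 5.46 for Ano3, 1.21 for Itgb3bp and 2.30 for Hist2h2aa2. For the lower genes they were -1.50 for Pex11a, -2.06 for Slc27a2, -1.76 for Cecr2, -0.82 for Dst, -3.74 for Wif1, -1.24 for Dennd3, -1.25 for Med12l, -1.49 for Cerkl, -3.17 for Satb1 and -1.66 for Slc37a1. With own-range control 9 of the 22 differed. These contrasts reuse the Arid1a-fl libraries by which the 22 were chosen, and so lean toward a difference. Against the 13 control tumours, 2 of the 22, Gabre and Satb1, were called in Pbrm1-fl tumours. Number range and floxed gene cannot be told apart in the direct contrasts.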

How the results depend on the processing

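The labels give no shared replicate numbers, and the blocked fit below groups neighbouring mouse numbers. The 637 genes became 26 at an adjusted p under 0.01, 243 with no filter on low counts, 1694 with DESeq2, 159 with only the 21 libraries in the fit, 11 without Arid1a-fl replicates 1 and 8, and 56 to 1416 when 1 tumour was left out. With RLE size factors (699), chromosome centring (503), a muscle covariate (466) or without control replicates 1 and 9 (570) the count stayed within 1.5 times. Against the 5 control tumours numbered under 1000, the 1405 genes became 221 at an adjusted p under 0.01, 2486 with DESeq2, 0 with only the 13 libraries (edgeR, 3913 at an unadjusted p under 0.05), 0 with a block of neighbouring mouse numbers (edgeR, 3178 unadjusted), 319 without Arid1a-fl replicates 1 and 8, and 135 to 2768 when 1 tumour was left out. The 20 genes against Arid1b-fl became 10 at the stricter threshold and 0 with own-range control, the 2468 against Pbrm1-fl became 1041 and 436, and the 578 between control ranges became 73, and 378 with no filter. The cause of these shifts was not tested. Over the named genes, 1843 alternative values kept direction and side of the threshold, 690 lost the call, 6 gained it and 2 reversed, both of C1rb (-0.69 with DESeq2, and -0.82 without Arid1a-fl replicate 5, up to 2.83 with another tumour left out). Of the list counts 315 kept within their limits and 205 moved. With 5 control tumours in range, 1 of which had Arid1a as low as the floxed tumours, and 2 floxed tumours holding many extreme values, single calls near the threshold are uncertain.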

Other observations

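Smaller lists held 1 or 2 calls each, and the genes below were named after their values were seen. In glycolysis 2 of 23 gene entries (22 symbols) rose and none fell, with a list median of 0.132. Hk1, the hexokinase of the first step, stood at 107.2, 139.1 and 188.6 CPM in control (lowest, median, highest) and 170.4, 179.5 and 222.9 CPM in Arid1a-fl tumours, a log2 fold change of 0.38 (adjusted p 0.0413) and 0.64 against the 5 control tumours numbered under 1000 (adjusted p 0.00404). Pgam1, another enzyme of the pathway, rose by 0.70 (adjusted p 0.0444). Hmgcs1 of cholesterol synthesis (0.66, adjusted p 0.0412), Shmt2 of one-carbon metabolism (0.61, adjusted p 0.0396) and Bak1, a pore-forming protein of apoptosis (0.50, adjusted p 0.0156), also rose, each as the only call of its list. All 5 were called against both control sets.

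Of 30 AP-1 and immediate early genes, 28 had a negative log2 fold change (median -0.744), yet only Nr4a2, an orphan nuclear receptor, fell (-1.66, adjusted p 0.0324). The summed level of the list was 687.0, 1326.5 and 3637.1 CPM in control tumours (lowest, median, highest). In Arid1a-fl tumours the sum was 834.7, 929.8 and 1192.3 CPM, within the control range. Control replicate 11 held the highest value both of this sum and of summed skeletal muscle markers. The part of muscle in these levels was not tested. Myc rose by 1.54 (adjusted p 0.0379), with 148.0 CPM in the highest Arid1a-fl tumour, a median of 12.2 and at most 20.9 in control, and was not called against the 5 control tumours (adjusted p 0.108). The maintenance DNA methyltransferase gene Dnmt1 rose (0.73, adjusted p 0.0466), and the acetyltransferase gene Kat2b fell (-0.61, adjusted p 0.0288). In the IGF axis Irs4, an adaptor of insulin and IGF receptors, fell by 2.22 (adjusted p 0.0350) and Igf2 by 1.86 (adjusted p 0.0380), with 5 of 26 members positive. Of 39 collagen chains Col4a6, a basement membrane collagen, was the only call, at 0.914, 18.6 and 81.1 CPM in control and 0.397, 1.601 and 12.51 CPM in Arid1a-fl tumours (-3.05, adjusted p 0.0477).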
